A study of Rattus norvegicus with 12 samples.

Results

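The solute carriers described here are the genes on a rat whole-transcriptome array whose symbol begins with Slc, the 4 organic anion carriers of the Slco family included. Left aside were 13 carriers of glutamate, glucose, lactate, bicarbonate, iron, cystine and large neutral amino acids that belong to other gene groups. Of the 295 such genes on the array, the 174 with a mean signal of at least 215 over the 12 arrays were taken as members, out of 10261 genes tested in all, and 121 were too dim. A gene with several probe sets was represented by its brightest. The choice used the mean over all arrays, EGF arrays included, so a gene dim in both control groups could pass through its EGF arrays. Slc47a1 (control means 94.3 at 4 h and 100.2 at 12 h) and Slc7a8 (152.9 and 54.4) are examples. The rises of such genes are not independent of the choice. Just inside the limit lay Slc25a32 (217.6), Slc16a9 (219.7) and Slc6a7 (220.5), and just outside it Slc7a10 (214.2), Slc6a17 (201.9) and Slc26a4 (197.7). Slc6a17 shows what such a limit leaves out: its mean was 42.8 ± 28.5 in the 12 h controls and 433 ± 87.7 with EGF for 12 h (SD, n = 3).

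The cells were primary astrocytes cultured from the optic nerve head of the rat, the site at which the optic axons exit the eye. Cultures given epidermal growth factor (EGF) for 4 h were compared with control cultures labelled for that time, and cultures given EGF for 12 h with controls of their own, with 3 arrays in each of the 4 groups. The labels give no EGF dose, strain, age or treatment of the controls, and do not say whether replicates were separate cultures, so the p-values measure the spread between these samples, which may be technical. Values are linear MAS5 signals, and an EGF effect is the log2 fold change of signal + 24.4 from limma, given ± its standard error (SE) and called at a Benjamini-Hochberg adjusted p under 0.05 over 18625 probe sets.

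Solute carriers are membrane proteins that move amino acids, sugars, nucleosides, vitamins, ions and metals across the cell surface and the membranes of mitochondria, lysosomes and the Golgi, by facilitated diffusion or by coupling a substrate to the gradient of sodium, protons or another solute. Astrocytes use them to take up transmitter breakdown products, to buffer ions and volume through organic osmolytes such as taurine and myo-inositol, and to exchange amino acids and organic acids with neurons. Growth factor receptors are known to raise nutrient uptake in dividing cells.

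The arrays fell into sets that cross the groups. The 4 h replicate 3 pair stood apart by its hybridisation control signal, 15945 and 18750 against at most 300.7 elsewhere, and formed set 2, with the other 4 h arrays as set 1. The 12 h controls and EGF replicates 1 and 2 had an actin 3' to 5' ratio of 11.1 to 21.7 (set 3), while EGF replicate 3 at 12 h had 1.24 (set 4), near the 1.20 to 1.61 of the 4 h arrays. In set 3 the 3' end of actin thus read far brighter than its 5' end, a limit on the quality of those arrays. Its part in the 12 h signals and effects was not tested. Time and set cannot be told apart, so no signal at 4 h is compared with a signal at 12 h, and a difference between the EGF effects at the times carries the same limit. The highest trimmed mean of an array was 1.00007 times the lowest.

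The astrocyte label was checked against defining markers. Vim and Gja1 were bright, with group means of 62763 to 91773 and 62981 to 71814, but Gfap (130.1 to 215.3), Aqp4, Slc1a2, Aldh1l1 and Fabp7 lay below the limit of 215, and 6 of 11 astrocyte markers were tested. None of the 6 was called at 4 h and 2 fell at 12 h: Aldoc from 2234, 2811 and 2921 to 19.9, 52.8 and 20.3 (-5.64 ± 0.64, adjusted p = 1.81e-05), and Glul, glutamine synthetase, from 6551, 7606 and 7473 to 2679, 2739 and 3522 (-1.28 ± 0.15, adjusted p = 2.83e-05). The list's summed signal was 125702 to 137966 in controls and 131944 to 159453 with EGF at 4 h, and 147579 to 153894 and 138471 to 199354 at 12 h. Most of this sum is the signal of Vim and Gja1, so it hardly registers the other markers, the falls of Aldoc and Glul included. All 7 neuron markers lay below the limit. Their summed signal was 842.8 to 984.5 in controls and 947.4 to 1189.9 with EGF at 4 h, and 348.8 to 798.4 and 1011.2 to 1735.6 at 12 h. Collagens were also bright (Col1a1, Col1a2 and Col3a1, group means 33587 to 100304). Of 6 tested fibroblast and meningeal markers, 2 fell at 4 h and 5 at 12 h, with the calls of Dcn at 4 h and of Col3a1 and Lum at 12 h lost under 12 of 22, 12 of 22 and 13 of 21 alternatives, and their summed signal was 207865 to 248416 in the 12 h controls and 114487 to 183210 with EGF. At 4 h it was 241010 to 272500 in controls and 208006 to 223256 with EGF. The oligodendrocyte genes Mbp and Cnp fell at both times, with effects of -1.23 and -1.24 for Mbp and of -0.99 and -0.97 for Cnp, while Mag was not called (0.11 and 0.56), though each 12 h EGF array lay above each control, and Mog, Olig1, Olig2 and Sox10 lay below the limit. That list's sum was 6088 to 7096 in controls and 3180 to 4070 with EGF at 4 h, and 8978 to 9560 and 4113 to 5502 at 12 h. For the endothelial list, where Tek fell at both times, Slco1a4, itself one of the 174 carriers, fell at 12 h, and Pecam1, Kdr, Cldn5 and Vwf lay below the limit, it was 2939 to 3478 and 1833 to 1936 at 4 h, and 3127 to 3867 and 1475 to 1883 at 12 h. Of 3 tested microglial markers, Cd68 rose at 12 h (62.1 ± 62.5 to 924 ± 114), and the list's sum at 12 h was 868.2 to 1081 in controls and 1543 to 2278 with EGF (at 4 h 1193 to 1350 and 853 to 1088), with Ptprc, Itgam, Cx3cr1, Tyrobp and C1qa below the limit. The part of these shifts in the carrier results was not tested, and in bulk RNA fewer cells of a type and less RNA per cell cannot be told apart.

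After 4 h of EGF, 36 of the 174 carriers were higher and 31 lower, against 12.8% and 19.6% of all genes tested (32.4% in either direction). After 12 h, 28 were higher and 48 lower, against 16.5% and 24.2% (40.8% in either direction). The median EGF effect of the members was -0.17 at 4 h and -0.10 at 12 h, beside -0.17 and -0.09 over all genes, so the medians lay close together. The share of carriers called higher at 4 h was above that of all genes, a difference that was not tested. Within the group the range was wide: 19 carriers rose and 11 fell at least 2-fold at 4 h, and 14 rose and 27 fell at least 2-fold at 12 h, against 6.01%, 6.58%, 7.14% and 10.6% of all genes. Calls were made for 98 carriers at either time and for 45 at both, against 53.1% and 20.2% of all genes. Among the 45, 21 were higher and 23 lower at both, against 7.19% and 12.0% of all genes, and Slc19a1, the reduced folate carrier, was higher at 4 h and lower at 12 h (0.575% of all genes), on calls lost under 9 of 21 alternatives at each time. Every EGF array lay above every control array for 44 carriers at 4 h and 33 at 12 h, and below for 52 and 56, against 19.4%, 20.9%, 33.3% and 31.8% of all genes.

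Centring each array on its median moved the median of all probe sets by 0.108 at 4 h and 0.099 at 12 h. With it, the split at 4 h was 38 higher and 22 lower (63.3% of calls higher, 53.7% without), and at 12 h 33 higher and 37 lower (47.1%, 36.8% without). No called carrier changed sign under median centring or quantile normalization.

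**Figure D1:**
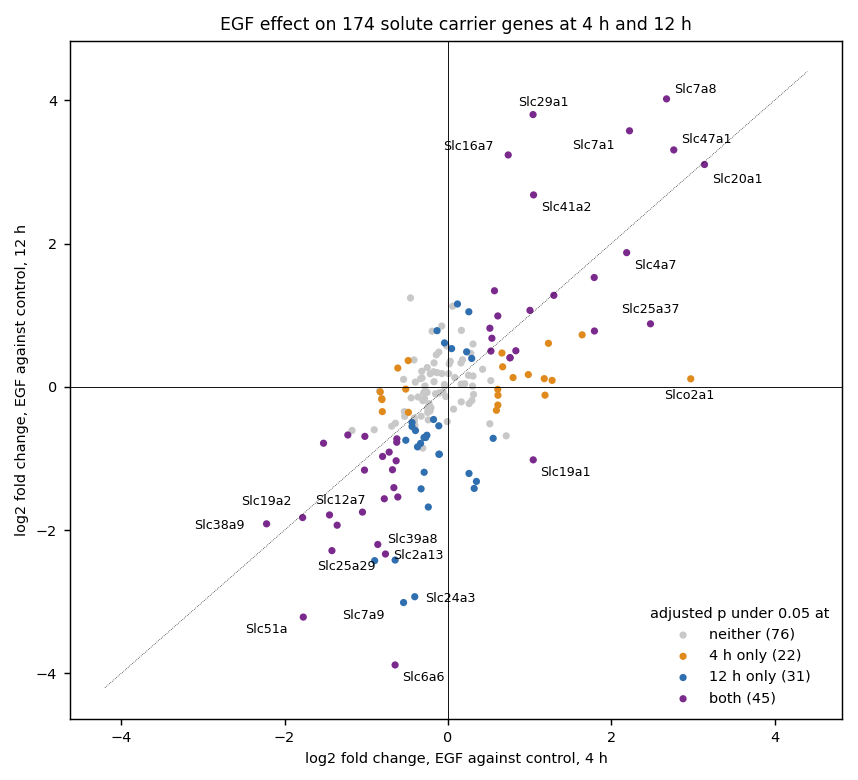
Log2 fold change of EGF against control at 4 h (x axis) and at 12 h (y axis) for each of the 174 carriers, coloured by the time at which the adjusted p was under 0.05; the dotted line marks equal effects. Slc20a1 lies on the line near 3.1 at both times, Slc29a1 and Slc16a7 lie far above it, and Slc6a6 and Slco2a1 far below it.

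Phosphate and sulfate carriers are described first because they hold the largest rise of the 174 carriers at 4 h. Slc20a1, a sodium-coupled phosphate importer, had signals of 4359, 3756 and 3680.3 in the 4 h controls and 34008, 36424 and 33983 with EGF for 4 h. At 12 h the controls were 5443, 5096 and 6232 and the EGF arrays 46132, 56721 and 42346. No array of a control group came near an EGF array at either time. The EGF effect was 3.14 ± 0.13 (adjusted p = 4.07e-09) at 4 h and 3.10 ± 0.13 (adjusted p = 2.7e-09) at 12 h, and the difference of -0.04 ± 0.19 between times was not called (adjusted p = 0.919). Its close relative Slc20a2, also a phosphate importer, was not called at either time (-0.28 and 0.01), although its dimmer probe set gave 1.08 at 12 h (adjusted p = 0.024). Slc13a4, a sodium-sulfate cotransporter, was not called at 4 h (-0.65, adjusted p = 0.343). It fell at 12 h from 368, 433 and 289.8 to 85.8, 6.9 and 82.7, an effect of -2.42 ± 0.47 (adjusted p = 0.00124), or -1.60 with the larger offset of 96.8, since the EGF signals were dim.

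The counts of each substrate class and partner list stand beside the shares of all genes given above, 12.8% higher and 19.6% lower at 4 h and 16.5% and 24.2% at 12 h. Amino acid and peptide carriers numbered 23, of which 5 rose and 4 fell at 4 h and 5 rose and 6 fell at 12 h. The carriers that rose at both times import or exchange amino acids at the cell surface. Slc7a1 carries arginine and lysine. It had signals of 1561, 1295 and 1416 in controls and 8399, 8077 and 4468 with EGF at 4 h, with replicate 3 the lowest of the EGF arrays. At 12 h the controls were 453, 495 and 409 and the EGF arrays 6119, 5494 and 5316, again without overlap. The EGF effect was 2.22 ± 0.21 (adjusted p = 4.47e-06) and then 3.57 ± 0.21 (adjusted p = 3.85e-08). It was larger at 12 h by 1.35 ± 0.29 (adjusted p = 0.0104) on this probe set, whereas the dimmer probe set rose by 2.39 and 2.87 with a difference of 0.48 that was not called (adjusted p = 0.292).

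Slc7a8, an exchanger of large neutral amino acids, had low controls: 114, 256 and 88.3 at 4 h and 45.5, 54.8 and 63 at 12 h. With EGF it read 1136, 991 and 947 and 1339.7, 844 and 1714, so that the groups did not overlap at either time. The effect was 2.68 ± 0.36 (adjusted p = 0.000105) at 4 h and 4.02 ± 0.36 (adjusted p = 1.8e-06) at 12 h, the largest rise of the 174 carriers at 12 h. Since the controls were dim, its size depends on the offset, and 96.8 in place of 24.4 gave 2.22 and 3.16. With that larger offset Slc7a8 was no longer first at 12 h, as Slc29a1 (3.63) and Slc7a1 (3.39) rose more. Slc7a6, which exchanges arginine for glutamine, rose by 1.00 ± 0.15 (adjusted p = 0.000321) and 1.07 ± 0.15 (adjusted p = 0.000136). The glutamine and small neutral amino acid exchanger Slc1a5 went from 422, 364 and 522 to 1406, 1361 and 1961 at 4 h and from 428, 164 and 189.9 to 938, 768 and 547 at 12 h. Its effects were 1.79 ± 0.32 (adjusted p = 0.00108) and 1.53 ± 0.32 (adjusted p = 0.00238). Slc38a2, another sodium-coupled importer of glutamine and alanine, was not called (-0.25 and -0.08).

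Slc38a9, the lysosomal carrier that senses arginine for the growth kinase complex mTOR, moved the other way. Its controls read 422, 469.9 and 649 at 4 h and 1932, 1843 and 1773 at 12 h, and the EGF arrays 79.9, 151 and 55.9 and 694, 314 and 482. Every EGF array lay below every control array, and the effects were -2.22 ± 0.33 (adjusted p = 0.000242) and -1.91 ± 0.33 (adjusted p = 0.000527). Slc7a9 and Slc3a1 are the light and heavy subunits of the carrier that takes up cystine and basic amino acids in kidney and gut. Slc7a9 overlapped between groups at 4 h (459.8, 312 and 649.5 in controls, 250.3, 337 and 333 with EGF), and fell at 12 h from 1096, 793 and 728 to 126, 65.2 and 73.6. Its effect at 12 h was -3.01 ± 0.33 (adjusted p = 1.15e-05), with a difference from 4 h of -2.47 ± 0.46 (adjusted p = 0.00435). Slc3a1 fell, with an effect of -0.80 ± 0.28 (adjusted p = 0.0459) at 4 h, where arrays overlapped, and of -0.97 ± 0.28 (adjusted p = 0.0145) at 12 h. The 4 h call was lost under 14 of 22 alternatives (highest adjusted p = 0.19), among them both scalings and the fits without each of 9 arrays left out singly. Slc1a1, a glutamate and cysteine importer known best from neurons, was not called at 4 h (0.35) and fell at 12 h from 626, 627 and 459 to 282, 199 and 168 (-1.32 ± 0.26, adjusted p = 0.00125). Its dimmer probe set gave -1.98 at 12 h.

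**Figure D2:**
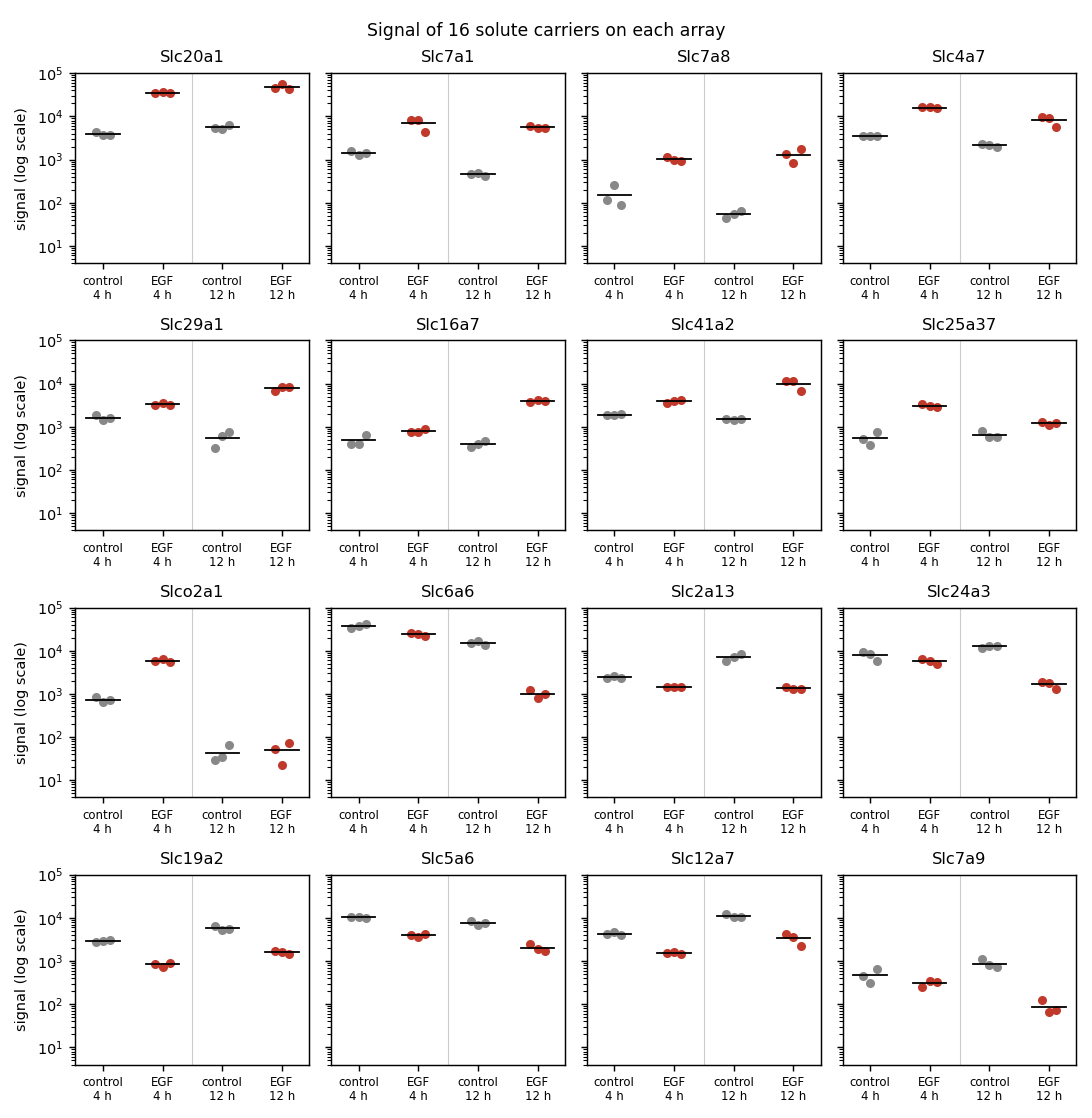
Signal on a log axis for 16 carriers on each of the 12 arrays, with control arrays in grey, EGF arrays in red and a line at each group mean (n = 3). Slc20a1 and Slc7a1 are separated at both times, Slco2a1 at 4 h, and Slc6a6 shows its wide gap at 12 h.

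Carriers of nucleosides, vitamins and choline moved in most cases: 5 of 12 rose and 6 fell at 4 h, and 2 rose and 6 fell at 12 h. Among nucleoside carriers, Slc29a1, the equilibrative importer that also carries adenosine, read 1826, 1437 and 1552 in controls and 3239, 3522 and 3195 with EGF at 4 h. At 12 h it read 322, 619 and 742 and 6814, 8199.5 and 8186. The groups were apart at both times and far more so at 12 h, with effects of 1.04 ± 0.23 (adjusted p = 0.00484) and 3.80 ± 0.23 (adjusted p = 6.58e-08) and a difference of 2.76 ± 0.33 (adjusted p = 0.000205). Slc29a2, of the same type, rose at 4 h from 332, 431 and 523 to 1375, 1325 and 1409 (1.64 ± 0.31, adjusted p = 0.00138). At 12 h its arrays overlapped (0.73, adjusted p = 0.0811), and the difference between times was not called (adjusted p = 0.197). The sodium-coupled nucleoside carrier Slc28a2 fell, with effects of -0.78 ± 0.19 (adjusted p = 0.00846) and -1.56 ± 0.19 (adjusted p = 3.43e-05).

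Thiamine, biotin and pantothenate carriers were lower with EGF. Slc19a2, the thiamine carrier, had controls of 2756, 2903 and 3031 and EGF arrays of 869, 714 and 909 at 4 h. At 12 h these were 6318, 5185 and 5558 and 1712, 1608 and 1438. The arrays of each group lay close together and did not overlap. The effects were -1.78 ± 0.14 (adjusted p = 1.17e-06) and -1.83 ± 0.14 (adjusted p = 5.27e-07), and the difference of -0.05 ± 0.20 (adjusted p = 0.91) was not called. Slc5a6, which takes up biotin and pantothenate, read 10293, 10572 and 9920.3 in controls and 4082, 3696 and 4218 with EGF at 4 h. At 12 h it read 8360.3, 6850.0 and 7735 and 2439, 1869 and 1702, for effects of -1.36 ± 0.14 (adjusted p = 1.35e-05) and -1.93 ± 0.14 (adjusted p = 3e-07).

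The folate carrier Slc19a1 went from 513, 499 and 305 to 932, 761 and 1062 at 4 h, a rise of 1.04 ± 0.35 (adjusted p = 0.0381). At 12 h it went from 409, 698 and 573 to 179, 471 and 198, with a called effect of -1.02 ± 0.35 (adjusted p = 0.0346) although the EGF replicate 2 array overlapped the controls. Its 4 h call was lost under 9 of 21 alternatives (highest adjusted p = 0.278), among them the fits without the 4 h replicate 3 pair or each of 7 arrays left out singly. Its 12 h call was lost under 9 of 21 alternatives (highest adjusted p = 0.127), among them both scalings, a block for array set and the fits without control 12 h replicates 2 or 3 or EGF 12 h replicates 1 or 3. The difference of -2.06 ± 0.49 (adjusted p = 0.0159) was called, though not without the 4 h replicate 3 pair (adjusted p = 0.0775), and the signals were low throughout. Slc46a1, the proton-coupled folate carrier, was not called at 4 h and fell, with an effect of -1.21 ± 0.33 (adjusted p = 0.0105) at 12 h, a call lost under 2 of 21 alternatives (highest adjusted p = 0.0533), among them the fits without control 12 h replicate 3. Slc23a2, which imports ascorbate, rose at 4 h by 1.18 ± 0.20 (adjusted p = 0.000598) and was not called at 12 h (0.11), with a difference of -1.07 ± 0.28 (adjusted p = 0.0252). Its dimmer probe set, with a mean signal of 285.9, gave 0.67 at both times without a call and a difference of -0.0021. The call of the difference was lost under 7 of 22 alternatives (highest adjusted p = 0.998), among them the fits without the 4 h replicate 3 pair, control 4 h replicate 1, control 12 h replicates 2 or 3, EGF 4 h replicate 1 or EGF 12 h replicate 2. The riboflavin carrier Slc52a2 fell at 4 h, with an effect of -0.48 ± 0.15 (adjusted p = 0.0317). This call was lost under 9 of 22 alternatives (highest adjusted p = 0.134), among them both scalings and the fits without the 4 h replicate 3 pair, control 4 h replicates 1 or 2 or any 4 h EGF array. Of the choline carrier family, Slc44a2 fell at both times (-0.72 and -0.91). Its call at 4 h was lost under 11 of 22 alternatives (highest adjusted p = 0.144), among them median centring and the fits without the 4 h replicate 3 pair or each of 7 arrays left out singly. Slc44a1 rose at both times on its brightest probe set (0.76 and 0.40). The next brightest gave 1.11 at 4 h (adjusted p = 0.000992) and 0.22 at 12 h without a call (adjusted p = 0.415). A dimmer one gave -0.29 at 4 h and -0.59 at 12 h (adjusted p = 0.0215), so the direction of Slc44a1 at 12 h is uncertain. On the brightest probe set the 12 h call was lost under 6 of 23 alternatives (highest adjusted p = 0.415), among them the fits without control 12 h replicates 1 or 3 or EGF 12 h replicates 1 or 2.

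Carriers of neurotransmitters, osmolytes and creatine held the largest fall, at 12 h. None of the 7 rose, 2 fell at 4 h and 4 at 12 h. Slc6a6, the taurine importer, read 33717, 36746 and 41548 in the 4 h controls and 25105, 23831 and 22403 with EGF. At 12 h the controls were 14854, 16449 and 13665 and the EGF arrays 1222, 783 and 1016. The EGF arrays lay below the controls at both times, by a modest margin at 4 h and a wide one at 12 h. The effect was -0.65 ± 0.15 (adjusted p = 0.00668) at 4 h, where the call was lost without the replicate 3 pair (-0.52, adjusted p = 0.0768), and -3.88 ± 0.15 (adjusted p = 1.54e-09) at 12 h. The difference was -3.24 ± 0.22 (adjusted p = 2.39e-06). Its dimmer probe set gave -0.95 (adjusted p = 0.023) and -3.37 (adjusted p = 1.07e-06).

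Of the myo-inositol carriers, Slc2a13, which couples myo-inositol to protons, went from 2316, 2664 and 2392 to 1413, 1452 and 1436 at 4 h and from 5824, 7134 and 8332 to 1481, 1317 and 1329 at 12 h. The groups did not overlap, and the effects were -0.76 ± 0.15 (adjusted p = 0.00158) and -2.33 ± 0.15 (adjusted p = 7.08e-08), with a difference of -1.57 ± 0.21 (adjusted p = 0.000377). On its dimmer probe set the fall was called at 12 h (-1.68) and not at 4 h (-0.33, adjusted p = 0.212). Slc5a3, the sodium-coupled myo-inositol carrier, was not called at 4 h (-0.26) and fell at 12 h, with an effect of -0.68 ± 0.23 (adjusted p = 0.0333) on overlapping arrays. Without EGF 12 h replicate 3 this was -0.40 (adjusted p = 0.0993). The call was lost under 10 of 22 alternatives (highest adjusted p = 0.12), among them both scalings, a block for array set and the fits without the 4 h replicate 3 pair, control 12 h replicates 1 or 2 or EGF 12 h replicates 2 or 3. Slc6a8, the creatine importer, was not called at either time (0.07 and -0.31).

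Genes that act on the solutes of these carriers were read from a list of creatine and taurine synthesis enzymes and creatine kinases, which phosphorylate creatine: 4 of 7 tested fell at 4 h, 4 fell at 12 h, and none rose. The 4 h call of Gamt (-0.45) was lost under 8 of 22 alternatives (highest adjusted p = 0.119). That of Ckb (-0.84), on overlapping arrays, was lost under 7 of 22 (highest adjusted p = 0.139). Cdo1, which oxidises cysteine on the way to taurine, read 1094, 990.5 and 1099 in controls and 447, 427 and 473 with EGF at 4 h, and 5524, 5425 and 7163 and 342, 385 and 428 at 12 h. Its effects were -1.20 ± 0.17 (adjusted p = 0.000142) and -3.88 ± 0.17 (adjusted p = 2.7e-09), with each EGF array below each control. Ckmt1, a mitochondrial creatine kinase, was not called at 4 h (-0.48) and fell, with an effect of -3.83 ± 0.38 (adjusted p = 4.42e-06) at 12 h. Csad, the decarboxylase of the next step to taurine, and Gatm, which starts creatine synthesis, were chosen after their values were seen and fell at 12 h, with effects of -1.29 ± 0.21 (adjusted p = 0.000304) and -1.97 ± 0.30 (adjusted p = 0.000181). At 4 h Csad was not called (-0.49) and Gatm fell (-1.26 ± 0.30, adjusted p = 0.0061).

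**Figure D3:**
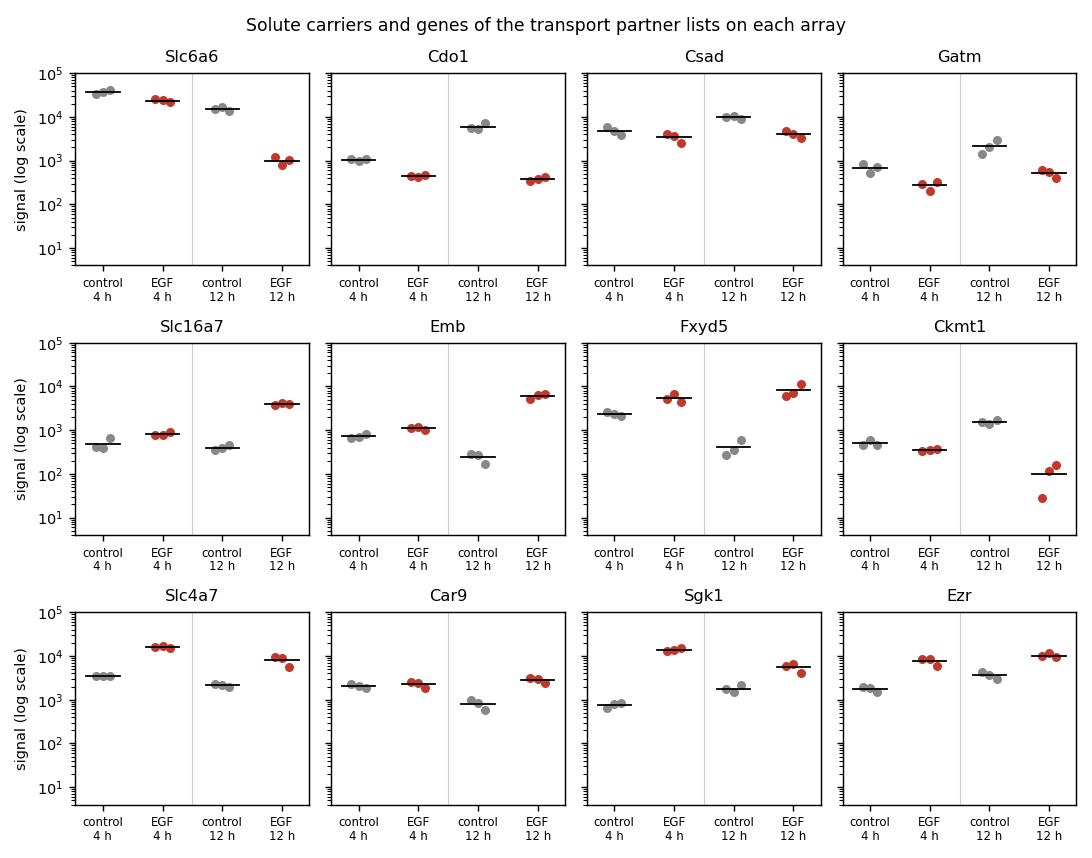
Signal on a log axis on each of the 12 arrays for 3 carriers and 9 genes of the transport partner lists, with control in grey, EGF in red and a line at each group mean (n = 3). Slc6a6, Cdo1, Csad and Gatm are lower with EGF at 12 h, while Slc16a7 and Emb are higher.

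Organic acid, thyroid hormone and organic ion carriers numbered 16, with 3 higher and 2 lower at 4 h and 2 higher and 5 lower at 12 h. Slc16a7, a proton-coupled carrier of lactate and pyruvate, read 405, 395 and 658 in controls and 768, 759 and 897 with EGF at 4 h, and 343, 393 and 464 and 3705, 4187 and 3966 at 12 h. Its groups touched no array of each other at either time, and the gap was wide at 12 h. The effect was 0.74 ± 0.21 (adjusted p = 0.0176) at 4 h, where leaving out EGF replicate 3 or control replicate 1 or 2 lost the call (highest adjusted p = 0.0761), and 3.24 ± 0.21 (adjusted p = 9.25e-08) at 12 h. The difference was 2.50 ± 0.30 (adjusted p = 0.000176). Emb encodes embigin, a membrane glycoprotein that escorts monocarboxylate carriers to the cell surface. It read 284, 266 and 170.4 in controls and 5299.7, 6259.5 and 6673 with EGF at 12 h, and its effects were 0.59 ± 0.20 (adjusted p = 0.0403) and 4.55 ± 0.20 (adjusted p = 3e-09). The first call was lost under 7 of 22 alternatives (highest adjusted p = 0.13), among them the replicate number as a block and the fits without control 4 h replicates 1 or 2, EGF 4 h replicates 1 or 2 or EGF 12 h replicate 2. Basigin (Bsg), the other such escort, was not called (-0.28 and -0.38).

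Slco2a1, which takes up prostaglandins for breakdown, was 827, 634 and 722 in controls and 5699, 6448 and 5442 with EGF at 4 h. At 12 h it was dim in controls (28.9, 33.7 and 66.3) and with EGF (51.5, 23 and 74). The groups were far apart at 4 h and overlapped at 12 h. The effect was 2.97 ± 0.31 (adjusted p = 1.36e-05) at 4 h and 0.11 at 12 h (adjusted p = 0.81), a difference of -2.86 ± 0.44 (adjusted p = 0.00122). The dimmer probe set rose by 2.02 at 4 h, and its difference of -1.99 was not called (adjusted p = 0.127). At signals under 100 the 12 h arrays bound the level poorly.

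Slc47a1, a proton-coupled exporter of organic cations, had dim and scattered controls of 188, 86.9 and 7.8 at 4 h and 52.6, 79 and 169 at 12 h. With EGF it read 653, 650.3 and 499.7 and 1195, 1061 and 1101, all above the controls. The effects were 2.77 ± 0.55 (adjusted p = 0.00223) and 3.31 ± 0.55 (adjusted p = 0.000419), or 1.98 and 2.67 with the larger offset. Slc51a, a subunit of the exporter of bile acids and steroid sulfates, went the other way, from 345, 382 and 415 to 151, 86.8 and 60.7 at 4 h and from 2328, 3084 and 2943 to 367, 219 and 261 at 12 h. Its effects were -1.77 ± 0.29 (adjusted p = 0.000568) and -3.21 ± 0.29 (adjusted p = 2.28e-06). The difference of -1.44 ± 0.41 (adjusted p = 0.0391) had its call lost under 12 of 21 alternatives (highest adjusted p = 0.108), among them quantile normalization, the replicate number as a block and the fits without each of 9 arrays left out singly. Slc22a5, the carnitine importer, was not called at 4 h (-0.33) and fell at 12 h, with an effect of -1.42 ± 0.24 (adjusted p = 0.000463).

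Of 14 carriers of sodium, protons, calcium and potassium-chloride, 1 rose and 3 fell at 4 h, near the 12.8% and 19.6% of all genes, and none rose and 6 fell at 12 h, where 16.5% and 24.2% of all genes did. The class median was -0.24 at 4 h and -0.58 at 12 h, beside -0.17 and -0.09 over all genes. Slc12a7, a potassium-chloride exporter used in volume control, went from 4173, 4720.4 and 3979.5 to 1532, 1653 and 1475 at 4 h and from 12422, 10698 and 10732 to 4141, 3629 and 2264 at 12 h, without overlap. Its effects were -1.45 ± 0.19 (adjusted p = 7.71e-05) and -1.79 ± 0.19 (adjusted p = 8.2e-06). Slc12a2, which imports sodium, potassium and chloride together, rose at 4 h from 8011, 8908 and 6666 to 17102, 17072 and 12676 (0.98 ± 0.14, adjusted p = 0.000216). At 12 h its effect was 0.17 and was not called, and the difference was -0.81 ± 0.20 (adjusted p = 0.0207). Its call was lost under 4 of 21 alternatives (highest adjusted p = 0.0621), among them the fits without control 12 h replicates 1 or 3 or EGF 4 h replicates 1 or 2.

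Of the 3 exchangers of the Slc24 family, 1 fell at 12 h and none at 4 h, and of the 2 of the Slc8 family, 1 fell at 4 h and 2 at 12 h. Slc24a3, which exchanges sodium for calcium and potassium, overlapped at 4 h (9168, 8404 and 5767 in controls, 6527, 5778 and 5049 with EGF). At 12 h the controls were 11812, 13179.5 and 13058 and the EGF arrays 1929, 1760.3 and 1301, an effect of -2.93 ± 0.19 (adjusted p = 8.61e-08) and a difference from 4 h of -2.52 ± 0.27 (adjusted p = 7.11e-05). A second, much dimmer probe set of Slc24a3 showed no such fall (-0.04, adjusted p = 0.971), so the result rests on the brighter one. Slc8a1, the plasma membrane sodium-calcium exchanger, fell, with effects of -1.02 ± 0.14 (adjusted p = 0.000145) and -0.69 ± 0.14 (adjusted p = 0.00188), while its dimmer probe set, with a mean signal of 418.0, was not called at 4 h (-0.75) and gave 1.43 at 12 h (adjusted p = 0.0403). The endosomal sodium-proton exchanger Slc9a9 fell, with an effect of -0.66 ± 0.22 (adjusted p = 0.0366) at 4 h and of -1.41 ± 0.22 (adjusted p = 0.000228) at 12 h. Its 4 h call was lost under 11 of 21 alternatives (highest adjusted p = 0.136), among them both scalings, the replicate number as a block and the fits without the 4 h replicate 3 pair or each of 6 arrays left out singly, and with the replicate number as a block the adjusted p was 0.0635.

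Sodium-coupled carriers draw on the gradient made by the Na,K-ATPase. Of its 5 tested subunit genes, 1 rose and 1 fell at 4 h, and 2 rose at 12 h. These were Atp1b1, Atp1b2, Atp1b3, Fxyd1 and Fxyd5, none of them a catalytic subunit. The catalytic subunit on the list, Atp1a4, lay below the limit (mean signal 37.6). Fxyd5, a regulatory subunit, read 267, 359 and 604 in controls and 5982, 7014 and 11504 with EGF at 12 h, and its effects were 1.18 ± 0.28 (adjusted p = 0.0064) and 4.25 ± 0.28 (adjusted p = 1.03e-07). Atp1b1, a beta subunit that escorts the catalytic one to the membrane, fell at 4 h, with an effect of -0.72 ± 0.22 (adjusted p = 0.0285). The call was lost under 6 of 22 alternatives (highest adjusted p = 0.115), among them both scalings and the fits without control 4 h replicates 1 or 2 or EGF 4 h replicates 1 or 2. Atp1b3, of the same type, rose at 12 h by 0.54 ± 0.18 (adjusted p = 0.0297), where arrays overlapped. This call was lost under 7 of 22 alternatives (highest adjusted p = 0.137), among them quantile normalization and the fits without control 12 h replicates 1 or 2 or EGF 12 h replicates 2 or 3. A list of kinases, scaffolds and chaperones that act on carriers numbered 19 tested, with 4 higher and 6 lower at 4 h and 4 higher and 8 lower at 12 h. It also holds transporter genes, Mpc1 and Mpc2 of the mitochondrial pyruvate carrier and Mfsd1, which are among the falls at both times. Their effects were -0.61, -0.45 and -0.47 at 4 h and -0.52, -1.18 and -0.68 at 12 h. At 4 h these calls were lost under 3, 11 and 1 of 22 alternatives, and at 12 h that of Mpc1 under 4 of 22. Sgk1, a kinase that keeps carriers and channels at the cell surface, read 639, 793 and 825 in controls and 12971, 13439 and 15563 with EGF at 4 h, and rose by 4.18 ± 0.19 (adjusted p = 8.02e-09) and 1.58 ± 0.19 (adjusted p = 3.18e-05). Ezr, which encodes ezrin and ties membrane proteins to actin, rose by 2.10 ± 0.18 (adjusted p = 2.24e-06) and 1.51 ± 0.18 (adjusted p = 2.72e-05). The scaffold Nherf1, which binds both ezrin and carriers, fell, with effects of -1.10 ± 0.14 (adjusted p = 8.71e-05) and -1.24 ± 0.14 (adjusted p = 1.96e-05).

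The bicarbonate and anion class held 6 carriers and 1 of them was called. Slc4a7, which brings sodium and bicarbonate into the cell and counters acid, read 3519, 3437 and 3539 in controls and 16324, 16509.5 and 15299 with EGF at 4 h, and 2275, 2135 and 1976 and 9459, 9102 and 5610.2 at 12 h. The 12 h EGF replicate 3 array was the lowest of its group and still above every control. The effects were 2.19 ± 0.17 (adjusted p = 8.53e-07) and 1.87 ± 0.17 (adjusted p = 2.13e-06), and the dimmer probe set gave 2.48 and 1.58. The chloride-bicarbonate exchanger Slc4a2 was not called (0.31, and 0.60 at 12 h or -0.043 without EGF replicate 3). The carbonic anhydrase family includes enzymes that supply bicarbonate. Of its 6 tested genes, none was called at 4 h, and at 12 h 2 rose and 1 fell. The fall was that of Car11 (-0.76 ± 0.17, adjusted p = 0.00317), and enzyme activity was not measured. The ones that rose, Car9 (1.81 ± 0.20, adjusted p = 1.57e-05) and Car2 (3.23 ± 0.59, adjusted p = 0.000868), were chosen after their values were seen.

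**Figure D4:**
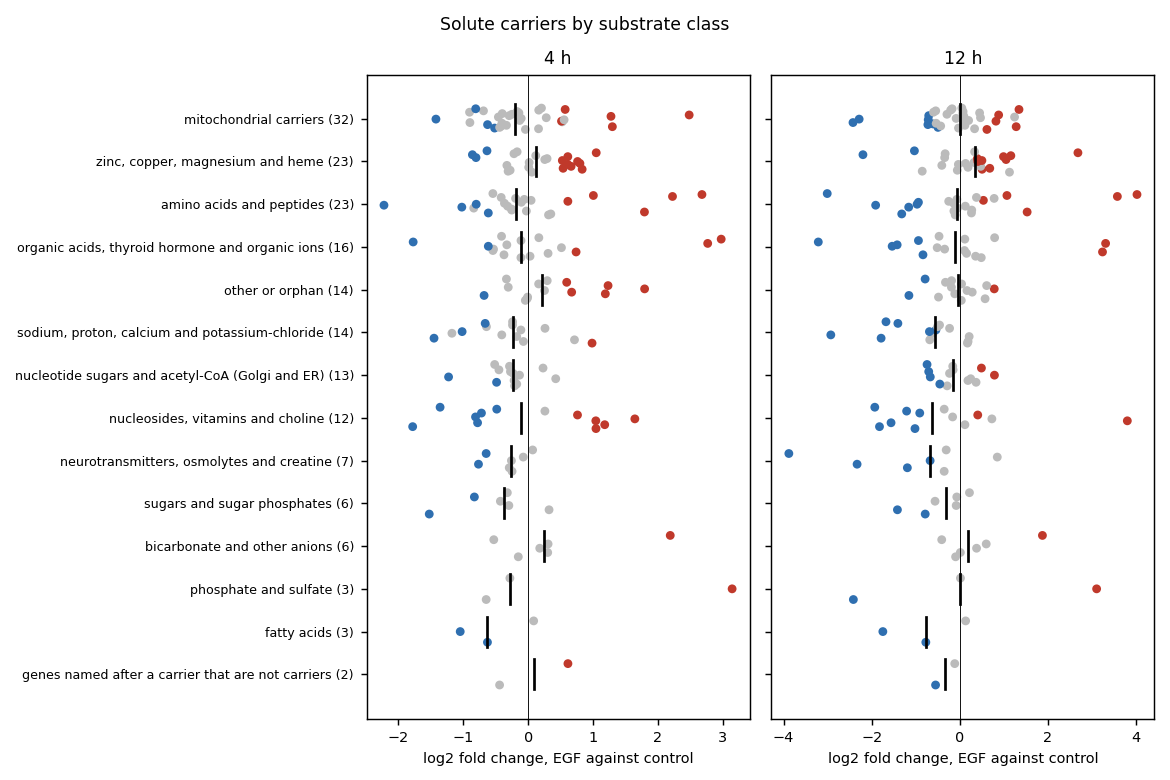
Log2 fold change of EGF against control at 4 h (left) and 12 h (right) for each carrier, by substrate class with the number of members in parentheses; red marks called rises, blue called falls, grey neither, and the black bar the class median. Metal carriers have 9 red points at each time. At 12 h the ion, osmolyte, sugar and fatty acid carriers and the genes that are not carriers have no red point.

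Of the 23 metal carriers, of zinc, copper, magnesium and heme, 9 rose and 3 fell at 4 h, beside 12.8% higher and 19.6% lower of all genes, and 9 rose and 2 fell at 12 h, beside 16.5% and 24.2%, with class medians of 0.12 and 0.33. Slc41a2, a magnesium carrier, read 1909, 1828 and 1927 in controls and 3639.6, 3950.5 and 4223 with EGF at 4 h, and 1543, 1416 and 1491 and 11464, 11386 and 6817 at 12 h. The groups did not overlap, and EGF replicate 3 was the lowest of the 12 h EGF arrays. The effects were 1.05 ± 0.18 (adjusted p = 0.000664) and 2.68 ± 0.18 (adjusted p = 1.12e-07), the difference was 1.63 ± 0.25 (adjusted p = 0.00116), and the dimmer probe set gave 1.02 and 2.38.

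Zinc importers of the Slc39 family bring zinc into the cytosol from outside or from organelles. Of 9, 3 rose and 2 fell at 4 h, and 6 rose and 1 fell at 12 h. Slc39a7, which releases zinc from the endoplasmic reticulum, was not called at 4 h (0.12) and rose at 12 h from 5521, 5317 and 5089 to 9398, 11624 and 15240.0. Its effect at 12 h was 1.16 ± 0.17 (adjusted p = 0.000187) and the difference between times 1.04 ± 0.25 (adjusted p = 0.0158). For Slc39a13, of the Golgi, the effects were 0.26 at 4 h, which was not called, and 1.05 ± 0.12 (adjusted p = 2.36e-05) at 12 h, a difference of 0.79 ± 0.18 (adjusted p = 0.011). Slc39a6 rose at both times (0.61 and 0.99), as did Slc39a10 (0.76 and 0.41) and Slc39a11 (0.53 and 0.50). The Slc39a10 call at 12 h was lost under 5 of 22 alternatives (highest adjusted p = 0.143), among them the fits without control 12 h replicates 1 or 2 or EGF 12 h replicate 2. For Slc39a11 the call at 4 h was lost under 12 of 22 alternatives (highest adjusted p = 0.165), among them the fits without the 4 h replicate 3 pair or each of 9 arrays left out singly. That at 12 h was lost under 14 of 22 alternatives (highest adjusted p = 0.163), among them the fits without the 4 h replicate 3 pair or each of 10 arrays left out singly. The next highest probe set of Slc39a6 was not called at 4 h (0.72, adjusted p = 0.309). Slc39a8, a surface importer of zinc and manganese, fell from 1193, 1278 and 1179 to 828, 728 and 475 at 4 h and from 1952, 2029 and 1771 to 494, 329.9 and 384 at 12 h. The effects were -0.86 ± 0.22 (adjusted p = 0.00925) and -2.20 ± 0.22 (adjusted p = 4.47e-06), with a difference of -1.34 ± 0.31 (adjusted p = 0.0127). Without the 4 h replicate 3 pair the 4 h call was lost (adjusted p = 0.0607).

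Zinc exporters of the Slc30 family move zinc out of the cytosol. Of 8, 3 rose at 4 h and 2 at 12 h, and none fell. Those that rose at 4 h were Slc30a4, Slc30a5 and Slc30a7, which load vesicles or the secretory pathway (0.83, 0.54 and 0.66). The Slc30a5 call was lost under 12 of 22 alternatives (highest adjusted p = 0.127), among them the fits without the 4 h replicate 3 pair or each of 9 arrays left out singly. That of Slc30a7 was lost under 1 of 22 alternatives (highest adjusted p = 0.0601), the fit without the 4 h replicate 3 pair. The plasma membrane exporter Slc30a1 was not called, with 0.06 at 4 h and 1.12 at 12 h (adjusted p = 0.0688). At 12 h it was 0.40 without EGF replicate 3 (adjusted p = 0.229), and 1.22 with median centring, where it was called (adjusted p = 0.0405). Copper carriers rose at 4 h: Slc31a1, the copper importer, by 0.61 ± 0.14 (adjusted p = 0.00503) and Slc31a2, its intracellular relative, by 0.80 ± 0.15 (adjusted p = 0.00138), which its dimmer probe set did not call (0.69, adjusted p = 0.238). At 12 h Slc31a1 was not called on its brightest probe set (-0.03), while 2 of its 3 dimmer ones rose by 0.71 (adjusted p = 0.0197) and 1.02 (adjusted p = 0.0406). The heme carrier Slc48a1 fell, with effects of -0.63 ± 0.16 (adjusted p = 0.00887) and -1.03 ± 0.16 (adjusted p = 0.000213). Of 8 tested metallothioneins and metal chaperones, 1 rose and 1 fell at 4 h, and 1 rose and 2 fell at 12 h.

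**Figure D5:**
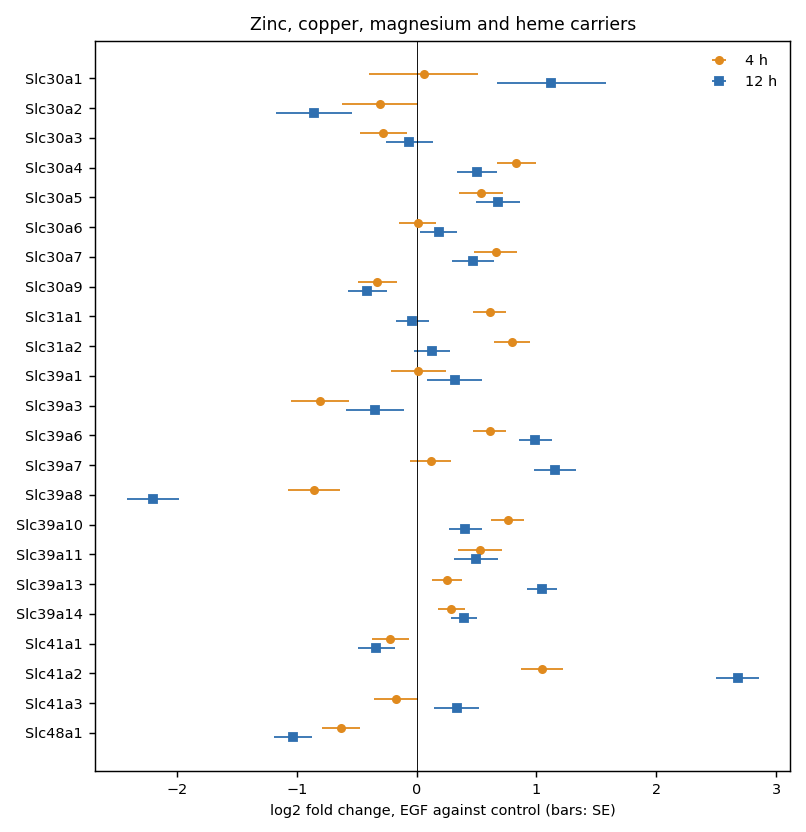
Log2 fold change of EGF against control (x axis) with its SE as a bar for the 23 carriers of zinc, copper, magnesium and heme, at 4 h (circles) and 12 h (squares). Slc41a2 and Slc39a7 lie further right at 12 h and Slc39a8 further left, while Slc31a1 and Slc31a2 are above 0 at 4 h.

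Mitochondrial carriers of the Slc25 family formed the largest class, with 32 members. At 4 h 5 rose and 4 fell, and at 12 h 5 rose and 7 fell, so most were not called. The mitochondrial iron importer mitoferrin has a pair of genes. Slc25a37 rose from 531, 369 and 753 to 3429, 2951 and 2847 at 4 h and from 777, 575 and 575 to 1292, 1084 and 1202 at 12 h, without overlap. Its effect was 2.48 ± 0.23 (adjusted p = 4.04e-06) and then 0.88 ± 0.23 (adjusted p = 0.00877), a difference of -1.60 ± 0.32 (adjusted p = 0.00679). The relative Slc25a28 was not called at 4 h (0.55, adjusted p = 0.09) and fell at 12 h, with an effect of -0.72 ± 0.23 (adjusted p = 0.0257), a difference of -1.27 ± 0.32 (adjusted p = 0.0226). At 12 h the effect was -0.47 without EGF replicate 3 (adjusted p = 0.0752). This call was lost under 6 of 22 alternatives (highest adjusted p = 0.0752), among them both scalings and the fits without any 12 h control or EGF 12 h replicate 3. For the difference the call was lost under 5 of 21 alternatives (highest adjusted p = 0.0599), among them the fits without control 4 h replicate 3, control 12 h replicates 1 or 2 or EGF 4 h replicates 1 or 2.

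The 5 members with the brightest probe sets were Slc25a3, Slc25a4, Slc25a5, Slc20a1 and Slc6a6, and brightness of probe sets gives no order of transcript levels. Slc25a5, an exchanger of ADP and ATP, rose from 20760.3, 21994 and 24727 to 29569.6, 32169.5 and 38889 at 4 h and from 12839, 11396 and 12186 to 25743, 33772 and 33431 at 12 h. The effects were 0.57 ± 0.14 (adjusted p = 0.00879) and 1.34 ± 0.14 (adjusted p = 9.01e-06). The difference of 0.77 ± 0.20 (adjusted p = 0.0251) had its call lost under 8 of 21 alternatives (highest adjusted p = 0.0708), among them the fits without each of 7 arrays left out singly. Slc25a4, its muscle and brain counterpart, and the phosphate carrier Slc25a3 were not called (-0.14 and 0.45, and -0.11 and -0.09). Slc25a13, an aspartate-glutamate carrier of the malate-aspartate shuttle, rose at both times (1.30 ± 0.16 (adjusted p = 5.55e-05) and 1.28 ± 0.16 (adjusted p = 4.31e-05)), and its dimmer probe set was not called at 4 h (0.96, adjusted p = 0.0624). Its counterpart in brain and muscle, Slc25a12, fell at 12 h, with an effect of -0.50 ± 0.16 (adjusted p = 0.0237). That call was lost under 6 of 22 alternatives (highest adjusted p = 0.0831), among them both scalings and the fits without control 12 h replicates 1 or 3 or EGF 12 h replicate 2.

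Among the mitochondrial carriers that fell was Slc25a29, a carrier of basic amino acids. It went from 1774, 1279.8 and 1534 to 562, 479.9 and 621 at 4 h and from 3377, 3277 and 3286 to 686, 922 and 451 at 12 h, with every EGF array below the controls. The effects were -1.42 ± 0.23 (adjusted p = 0.000425) and -2.29 ± 0.23 (adjusted p = 4.98e-06). Slc25a21, a carrier of oxodicarboxylates, overlapped at 4 h and fell at 12 h from 605, 516 and 469 to 52.4, 36.1 and 208, an effect of -2.43 ± 0.56 (adjusted p = 0.00395) on dim EGF signals. Slc25a24, which exchanges ATP-magnesium for phosphate, rose by 0.51 ± 0.16 (adjusted p = 0.0314) at 4 h and by 0.82 ± 0.16 (adjusted p = 0.00157) at 12 h. With the replicate number as a block the 4 h call was lost (adjusted p = 0.0517), and in all it was lost under 7 of 22 alternatives (highest adjusted p = 0.13), among them the replicate number as a block and the fits without any 4 h control or EGF 4 h replicates 1 or 2. Slc25a33, a pyrimidine nucleotide carrier, rose at 4 h by 1.28 ± 0.34 (adjusted p = 0.0121), a call lost under 1 of 21 alternatives (highest adjusted p = 0.0528), the fit without control 4 h replicate 1, and was not called at 12 h (0.09).

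Nucleotide sugar carriers feed the Golgi and endoplasmic reticulum. Of 13, none rose and 2 fell at 4 h, and 2 rose and 4 fell at 12 h. Slc35a5, a carrier of UDP-sugars, read 4809, 4288 and 4810.4 in controls and 1878, 2071 and 1953 with EGF at 4 h, and fell, with effects of -1.23 ± 0.12 (adjusted p = 9.97e-06) and -0.67 ± 0.12 (adjusted p = 0.000919). Slc35b1, which exchanges ATP for ADP at the endoplasmic reticulum, was not called at 4 h (-0.13) and rose at 12 h from 6529, 6858 and 4694 to 9755, 11347 and 9736 (0.78 ± 0.14, adjusted p = 0.000754). Its dimmer probe set did not show the rise (-0.092, adjusted p = 0.709). Slc35a2, the UDP-galactose carrier, fell at 4 h (-0.49 ± 0.17, adjusted p = 0.0466), gave 0.37 at 12 h, and differed between times by 0.85 ± 0.24 (adjusted p = 0.0348). The 4 h call was lost under 13 of 22 alternatives (highest adjusted p = 0.166), among them both scalings and the fits without each of 9 arrays left out singly. For the difference it was lost under 9 of 21 alternatives (highest adjusted p = 0.0925), among them the fits without each of 8 arrays left out singly.

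None of the 6 carriers of sugars and sugar phosphates rose, and 2 fell at each time. Slc2a8, an intracellular hexose carrier, went from 957, 853 and 945 to 313, 281 and 317 at 4 h, an effect of -1.52 ± 0.27 (adjusted p = 0.00083). At 12 h its effect of -0.79 ± 0.27 (adjusted p = 0.0331) was -0.43 without EGF 12 h replicate 1. Its call was lost under 8 of 22 alternatives (highest adjusted p = 0.108), among them both scalings and the fits without any 12 h control or EGF 12 h replicate 1. Slc37a1, a glucose-6-phosphate carrier, was not called at 4 h (0.32) and fell at 12 h from 221, 277 and 260.1 to 84.3, 59.7 and 96.4 (-1.42 ± 0.35, adjusted p = 0.00589). Of 3 fatty acid carriers that activate long chains on entry, 2 fell at both times: Slc27a1, with effects of -0.63 ± 0.15 (adjusted p = 0.00603) and -0.77 ± 0.15 (adjusted p = 0.00107), and Slc27a3, with effects of -1.05 ± 0.25 (adjusted p = 0.00636) and -1.75 ± 0.25 (adjusted p = 0.000107). Slc27a4 was not called (0.09 and 0.13).

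Among 14 carriers with other or unknown substrates, 5 rose and 1 fell at 4 h, and 1 rose and 2 fell at 12 h. Slc35e4, whose substrate is unknown, went from 1069.6, 1082 and 1422 to 4295, 4367 and 3824 at 4 h. Its effects were 1.79 ± 0.16 (adjusted p = 2.82e-06) and 0.78 ± 0.16 (adjusted p = 0.00189), with a difference of -1.02 ± 0.23 (adjusted p = 0.0113). Slc22a17, a receptor for the siderophore-binding protein lipocalin, fell, with effects of -0.68 ± 0.15 (adjusted p = 0.00375) and -1.16 ± 0.15 (adjusted p = 4.38e-05). A pair of members carry a carrier's name without being carriers: Slc7a6os rose at 4 h by 0.61 ± 0.17 (adjusted p = 0.0147), and Slc4a1ap fell at 12 h, with an effect of -0.55 ± 0.19 (adjusted p = 0.0358). The Slc7a6os call was lost under 3 of 22 alternatives (highest adjusted p = 0.0991), among them the fits without the 4 h replicate 3 pair, control 4 h replicate 2 or EGF 4 h replicate 3. The Slc4a1ap call was lost under 11 of 22 alternatives (highest adjusted p = 0.101), among them both scalings, the replicate number as a block, a block for array set and the fits without any 12 h control or EGF 12 h replicates 2 or 3.

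The EGF effect itself differed between the times for 29 of the 174 carriers, 10 higher and 19 lower at 12 h than at 4 h, against 6.55% and 7.45% of all genes tested (14.0% in either direction). The 4 largest differences in each direction were those of Slc29a1, Slc16a7, Slc41a2 and Slc7a1, and of Slc6a6, Slco2a1, Slc24a3 and Slc7a9. These counts rest on few arrays. The number lower was 11 without EGF 4 h replicate 1, and 12 without EGF 4 h replicate 2, control 12 h replicate 1 or control 12 h replicate 2, and the number higher was 17 without EGF 12 h replicate 3. When the set of arrays entered the fit as a block, they were 22 higher and 30 lower. Set 4 is EGF 12 h replicate 3 alone, so this block gives the same effect sizes as leaving that array out.

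Of the 174 members, 142 matched the RefSeq promoter table of assembly GRCr8 by gene identifier, and the 250 bases before the start were searched. Shown in lower case, 5′ to 3′ on the gene's strand, are those of the carriers with the largest changes of effect that the table holds with a match, Slc29a1, Slc41a2 and Slc7a1 (higher) and Slc6a6 (lower), and of Slc19a2, which fell at both times. Capitals mark the motif matched, which is TGANTCA (AP-1) in Slc19a2 and TGACNNNGC (antioxidant response element) or its reverse complement in the others.
Slc29a1, chr9:22896849-22897098, plus strand: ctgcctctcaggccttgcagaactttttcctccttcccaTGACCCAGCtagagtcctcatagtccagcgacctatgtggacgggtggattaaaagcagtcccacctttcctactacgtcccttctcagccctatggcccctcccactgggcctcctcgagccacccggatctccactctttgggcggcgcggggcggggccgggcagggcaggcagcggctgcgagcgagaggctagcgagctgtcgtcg
Slc41a2, chr7:22271063-22271312, plus strand: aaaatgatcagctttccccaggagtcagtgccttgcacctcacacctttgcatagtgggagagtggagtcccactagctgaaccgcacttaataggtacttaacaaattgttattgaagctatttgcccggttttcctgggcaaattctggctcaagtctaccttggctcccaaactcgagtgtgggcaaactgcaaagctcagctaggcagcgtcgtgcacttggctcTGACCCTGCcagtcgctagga
Slc7a1, chr12:11664238-11664487, plus strand: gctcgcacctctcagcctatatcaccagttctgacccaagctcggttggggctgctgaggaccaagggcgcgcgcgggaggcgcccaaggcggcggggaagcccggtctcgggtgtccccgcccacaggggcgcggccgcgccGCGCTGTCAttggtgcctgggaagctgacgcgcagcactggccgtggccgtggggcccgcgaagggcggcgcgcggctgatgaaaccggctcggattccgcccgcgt
Slc6a6, chr4:125752252-125752501, plus strand: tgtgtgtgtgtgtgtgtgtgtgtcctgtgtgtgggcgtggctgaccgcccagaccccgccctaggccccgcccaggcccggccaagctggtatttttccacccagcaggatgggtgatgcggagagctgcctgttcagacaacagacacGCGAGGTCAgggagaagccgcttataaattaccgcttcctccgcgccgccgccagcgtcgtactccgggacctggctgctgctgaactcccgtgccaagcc
Slc19a2, chr13:79134868-79135117, plus strand: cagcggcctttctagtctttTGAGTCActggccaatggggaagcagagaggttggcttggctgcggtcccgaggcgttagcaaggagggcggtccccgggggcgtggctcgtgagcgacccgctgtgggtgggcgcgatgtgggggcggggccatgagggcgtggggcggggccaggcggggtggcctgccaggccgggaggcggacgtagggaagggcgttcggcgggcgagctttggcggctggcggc
In Slc29a1 the match lies 211 to 203 bases before the start, in Slc41a2 21 to 13, in Slc7a1 107 to 99, in Slc6a6 101 to 93 and in Slc19a2 230 to 224. Slc29a1, Slc41a2 and Slc7a1 rose and Slc6a6 fell, so carriers that moved in opposite directions share this motif.

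Over both strands, TGACNNNGC was found in 17.6% of the 142 member promoters and in 10.2% of all 27457 promoters of the table. The AP-1 motif, which can overlap it, was found in 4.93% and 6.36%, the E-box CACGTG in 12.7% and 5.79%, and TTGCATCA, a C/EBP-ATF composite, in 1.41% and 0.656%. Among 15 members higher at both times, TGACNNNGC was in 26.7%, CACGTG in 13.3% and the others in none. Among 22 lower at both times, TGACNNNGC was in 18.2%, CACGTG in 13.6%, TGANTCA in 9.09% and TTGCATCA in none. A match is a run of letters and shows no binding.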

How the data were processed

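The values analysed are the signal intensity of each probe set that the authors deposited, linear and computed with MAS5 per the submitters' processing notes, whose version is not given. Arrays already shared a common trimmed mean and were not rescaled. Of 31099 probe sets, 57 control and 12417 dim ones (mean under the 40th percentile) were left out and 18625 tested. Group means of log2(signal + 24.4), the offset being the 10th percentile of all signals, were fitted over 12 arrays with limma 3.58.1 in R 4.3.3 (empirical Bayes, intensity trend, 8 residual degrees of freedom), two-sided, with Benjamini-Hochberg adjustment. Figures were drawn with matplotlib 3.10.9. Gene names came from the platform annotation, from the 20832 probe sets with 1 symbol.

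Groups and replicate numbers came from the sample titles, since every description reads as control. Same-numbered EGF and control arrays correlated at 0.121, 0.15 and 0.376 at 4 h and at 0.083, -0.111 and -0.103 at 12 h after removing group means, so by the rule that every pair exceed 0.1 the numbers pair the 4 h arrays alone. At 4 h, EGF replicate 1 with control 2 (0.142) and EGF 2 with control 1 (0.138) correlated about as well, so arrays 1 and 2 are not told apart by number and the pattern is that of sets 1 and 2.

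Members and lists were chosen with earlier results of these data known, as were the limits of 1000 and 5 that define the sets of arrays, and the substrate class of 3 genes was corrected after values were seen. The 35 carriers named by rule were, at 4 h and at 12 h, the called genes without overlap that rose most (8) and fell most (8), the 4 called differences furthest above 0 and the 4 furthest below, the smallest p of each class at each time, and the 5 brightest members. Besides these 35, the rule took up to 4 partner genes per time. Other genes named were chosen after their values were seen. The 22 alternative fits and the next highest probe set were tried, the next highest probe set for members alone.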

Additional observations from a re-analysis of the deposited data

Results flagged for a closer look

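For 29 carriers the EGF effect at 12 h differed from that at 4 h by the test of the difference itself (limma, adjusted p under 0.05), and each value is the log2 effect at 12 h minus that at 4 h. Time and set of arrays cannot be told apart in these differences. Higher at 12 h were the effects on Slc29a1 (2.76) and Slc16a7 (2.50), which carry nucleosides and organic acids, and on the metal carriers Slc41a2 (1.63), Slc39a7 (1.04) and Slc39a13 (0.79). The same held for the arginine importer Slc7a1 (1.35), for Slc35b1 (0.92) and Slc35a2 (0.85) of the secretory pathway, for the ADP and ATP exchanger Slc25a5 (0.77) and for the sugar carrier Slc50a1 (0.54).

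Lower at 12 h were the effects on the osmolyte carriers Slc6a6 (-3.24) and Slc2a13 (-1.57), the prostaglandin carrier Slco2a1 (-2.86) and the calcium exchanger Slc24a3 (-2.52). Amino acid carriers among them were Slc7a9 (-2.47) and Slc1a1 (-1.67), and vitamin carriers Slc19a1 (-2.06) and Slc23a2 (-1.07). Metal and iron carriers were Slc25a37 (-1.60), Slc39a8 (-1.34), Slc25a28 (-1.27) and Slc31a1 (-0.65). The others were Slc37a1 (-1.74), Slc51a (-1.44), Slc22a23 (-1.31), Slc35e4 (-1.02), Slc22a18 (-0.92), Slc35f6 (-0.92) and Slc12a2 (-0.81).

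The call of the difference was kept under every alternative for 12 of the 29. It was lost under 17 of 22 for Slc31a1, under 15 of 21 for Slc50a1 and Slc22a18 each, under 12 of 21 for Slc51a, under 11 of 20 for Slc37a1 and under 11 of 22 for Slc35f6. For Slc35a2 it was lost under 9 of 21, for Slc25a5 under 8 of 21, for Slc23a2 under 7 of 22, for Slc25a28 under 5 of 21 and for Slc12a2 under 4 of 21. A single alternative ended it for 6 others, the next highest probe set for Slc24a3, Slc35b1, Slc7a1, Slco2a1 and Slc1a1 and the fit without the 4 h replicate 3 pair for Slc19a1. Of the dimmer probe sets of Slc31a1, 2 of 3 rose at 12 h.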

How the results depend on the processing

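When the set of arrays entered the fit as a block, the carriers lower at 4 h numbered 47 in place of 31, and those whose effect differed between times 22 higher and 30 lower in place of 10 and 19. At 12 h this block and the fit without EGF 12 h replicate 3 give the same effect sizes, as for Slc4a2 (-0.043 in each). They are therefore not separate checks of a 12 h effect, although both count among the alternatives. With the replicate number as a block, the counts were 36 higher and 31 lower at 4 h, 27 and 47 at 12 h, and 11 and 16 for the difference; beyond Slc25a24, Slc9a9 and the partner gene Emb no named call at 4 h was lost under the pairing. Leaving out 1 array at a time gave 29 to 39 higher and 21 to 41 lower at 4 h, 22 to 36 and 38 to 49 at 12 h, and 7 to 17 and 11 to 25 for the difference. The next highest probe set turned the sign at 12 h for Slc16a13 (1.00), Slc35a1 (0.38), Slc35b1 (-0.092) and Slc8a1 (1.43), and that of the difference for Slc24a3 (0.42) and Slc35b1 (-0.0096). The cause was not tested. Of the calls, 37 of 67 at 4 h, 50 of 76 at 12 h and 12 of 29 for the difference were kept in every alternative. Signals near the offset of 24.4 limit the size of effects in dim groups, and with 3 arrays a group the median SE was 0.22.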
